A study of Nicotiana tabacum with 8 samples.

Results

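Under salt stress, 97 of the 81378 tobacco genes in the count table had lower transcript levels in leaves of the *NtCBL5A*-overexpressing line OE-2 alone. These genes were chosen by their measured values. FPKM is the number of reads of a gene scaled to its length and to the size of the library, and 0.1 was added to each value before ratios were taken. In each of 2 independent experiments the ratios S-OE2/C-OE2 and S-OE2/S-WT were at most 0.5. The ratios S-WT/C-WT and C-OE2/C-WT lay between 0.67 and 1.5, and the mean C-WT level lay between 5 and 200 FPKM. Genes to which the paper gives an identifier were left out. The 4 ratios were used for the choice, so their values describe the 97 genes and test nothing.

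CBL proteins are plant calcium sensors that bind and activate CIPK protein kinases. In Arabidopsis, AtCBL4 and AtCBL10 act with AtCIPK24 on sodium transport under salt stress. AtCBL1 and AtCBL9 act with AtCIPK23 on potassium uptake when potassium is low. OE-2 carries *NtCBL5A* under constitutive overexpression and is a single homozygous line, so that an effect of its insertion site cannot be told apart from one of the gene. Because a library holds RNA of a whole leaf blade, fewer cells of a type and less RNA per cell cannot be told apart.

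The 4 groups were S-OE2 and S-WT, given NaCl at 50 mM on the first day and 100 mM from the next, and C-OE2 and C-WT, kept without added NaCl. Plants of all groups were sampled 4 days after the start of the salt treatment, about 34 days after germination. The fifth leaf blades without main veins of 4 plants were pooled for each library. Each group had 1 library per experiment, 8 in all. In fits with a term for the experiment, a shift common to all groups is removed. The p-values between groups then set a mean group difference against the spread left over, which is how group differences varied between the 2 experiments. That spread was estimated from all groups together, with information shared across genes. Total counts on genes ranged from 18674594 to 31672013. The leaf label was checked with 12 photosynthesis genes of the mesophyll that the paper identifies, and the lowest level of any of them in any library was 81.0 FPKM. The genes of the table carry identifiers without descriptions, and the RefSeq table for another tobacco assembly matched none of them. The members are therefore given by identifier, position and level, with no function and no sequence, and *NtCBL5A* itself was not analysed here.

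Most genes with the deficits in S-OE2 were not flat in the other ratios. Of the 21695 genes in the window of C-WT levels, 507 had S-OE2 at or below 0.5 of both S-WT and C-OE2 in both experiments. Only 97 of these, 19.1%, were also flat in the other 2 ratios. Among the 410 that were not flat, S-WT was below 0.67 of C-WT in 1 or both experiments for 362 genes, and for 199 genes this was the only reason. C-OE2 was below 0.67 of C-WT for 169 of the 410. Seen from the other side, 11827 genes in the window had both flat ratios, and the 97 members made up 0.82% of them. The mirror pattern, at least 2-fold higher in S-OE2 with the same flat ratios, was met by 36 genes.

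The rule placed the members lower in S-OE2 than in the other 3 groups of the same experiment. The levels given here describe the size of that deficit and test nothing. The median member had 10.1 FPKM in S-OE2 in Experiment 1, against 27.2 FPKM in S-WT, 34.4 FPKM in C-OE2 and 35.3 FPKM in C-WT. In Experiment 2 the medians were 11.8 FPKM in S-OE2, 28.1 FPKM in S-WT, 29.3 FPKM in C-OE2 and 31.3 FPKM in C-WT. As a percentage of C-WT of the same experiment, the median level in S-OE2 was 29.7% in Experiment 1 and 35.0% in Experiment 2, where the median over all genes in the window was 88.9% and 84.2%. In raw counts, the 97 genes together took 0.169% and 0.217% of all counts in S-OE2 in Experiments 1 and 2, against 0.365% and 0.396% in S-WT. Their share was 0.341% and 0.411% in C-OE2, and 0.342% and 0.392% in C-WT. These are the same reads that the rule used, scaled here by total counts.

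**Figure D1:**
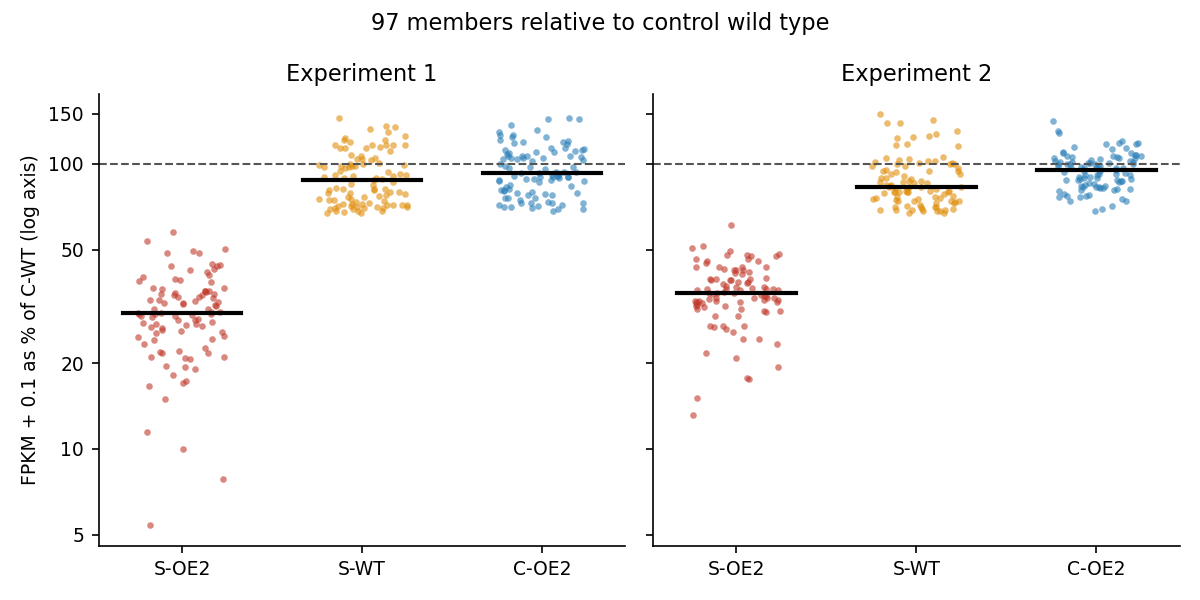
Each point is 1 of the 97 members, and the log axis gives its FPKM + 0.1 as a percentage of C-WT of the same experiment, with S-OE2, S-WT and C-OE2 from left to right and black lines at the medians. The S-OE2 medians stand near 30% and 35% of C-WT, and the ranges of S-WT and C-OE2 around 100% were set by the selection.

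The scaling of the libraries bears directly on which genes were chosen. The deposited FPKM values were divided by 49.0% to 97.6% of the total count of a library, and this percentage was 82.8% and 97.6% in S-OE2, 61.6% and 78.3% in S-WT, 52.4% and 69.1% in C-OE2 and 49.0% and 62.7% in C-WT in Experiments 1 and 2. It followed the groups. When FPKM were recomputed from total counts, 37 genes met the rule, of which 12 were among the 97. With CPM values scaled by TMM factors, which assume that most genes do not change, 66 genes met it and 56 of them were members. In edgeR fits, total-count scaling moved the median S-OE2 over S-WT change of all genes to 0.30 on the log2 scale, and that of the members was 1.33 below it, as it was with TMM factors.

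The 8 members with the deepest deficit were ranked by the higher of their 2 S-OE2/S-WT ratios. In what follows a pair of values is given for Experiment 1 and then Experiment 2. Nitab4.5_0008194g0010, on the plus strand at bases 90092 to 91900 of its scaffold in the Nitab-v4.5 assembly, had 0.386 and 1.18 FPKM in S-OE2 and 4.15 and 7.60 FPKM in S-WT. It had 4.15 and 7.18 FPKM in C-OE2 and 4.76 and 9.60 FPKM in C-WT. Both S-OE2 libraries were below all 6 others, and the S-OE2/S-WT ratios were 0.115 and 0.166. The S-OE2 values rest on 10 and 29 reads, so that counting error alone is large. Nitab4.5_0010638g0010 (minus strand, bases 48968 to 53410 of its scaffold) had 0.476 and 2.77 FPKM in S-OE2, 5.13 and 11.8 FPKM in S-WT, 9.60 and 11.2 FPKM in C-OE2 and 7.26 and 7.88 FPKM in C-WT. S-WT stood below C-WT in Experiment 1 and above it in Experiment 2, and S-OE2 stood below both each time. Nitab4.5_0000977g0080 (minus strand, bases 287560 to 292119) had 0.541 and 1.80 FPKM in S-OE2, 8.02 and 7.16 FPKM in S-WT, 8.55 and 8.52 FPKM in C-OE2 and 11.7 and 9.72 FPKM in C-WT. Its 4.60% of the C-WT level in S-OE2 of Experiment 1 was the lowest value of any member.

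Nitab4.5_0000829g0200 was the most abundant of the 8. This gene model of 336 bases, on the plus strand at bases 619525 to 621037 of its scaffold, had 33.6 and 15.8 FPKM in S-OE2, 117 and 84.9 FPKM in S-WT, 117 and 80.6 FPKM in C-OE2 and 131 and 90.0 FPKM in C-WT. S-WT and C-OE2 were almost at one level in each experiment, and S-OE2 was at 25.7% and 17.6% of C-WT. Nitab4.5_0000434g0080 had 3.03 and 4.24 FPKM in S-OE2, 15.3 and 14.9 FPKM in S-WT, 22.8 and 15.3 FPKM in C-OE2 and 20.8 and 18.5 FPKM in C-WT. Nitab4.5_0000152g0200 had 2.19 and 1.82 FPKM in S-OE2, 8.69 and 6.41 FPKM in S-WT, 6.70 and 6.62 FPKM in C-OE2 and 6.42 and 6.997 FPKM in C-WT. In both genes the S-OE2 libraries lay under all others with a wide gap. Nitab4.5_0001942g0170 had 21.0 and 9.58 FPKM in S-OE2, 70.3 and 31.5 FPKM in S-WT, 63.6 and 35.1 FPKM in C-OE2 and 86.9 and 39.8 FPKM in C-WT. Nitab4.5_0008008g0010 had 2.36 and 0.521 FPKM in S-OE2, 7.83 and 2.95 FPKM in S-WT, 7.20 and 2.94 FPKM in C-OE2 and 7.03 and 4.01 FPKM in C-WT. All groups of these last 2 genes were lower in Experiment 2, while the S-OE2/S-WT ratios were 0.299 and 0.306 for the first and 0.311 and 0.204 for the other.

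**Figure D2:**
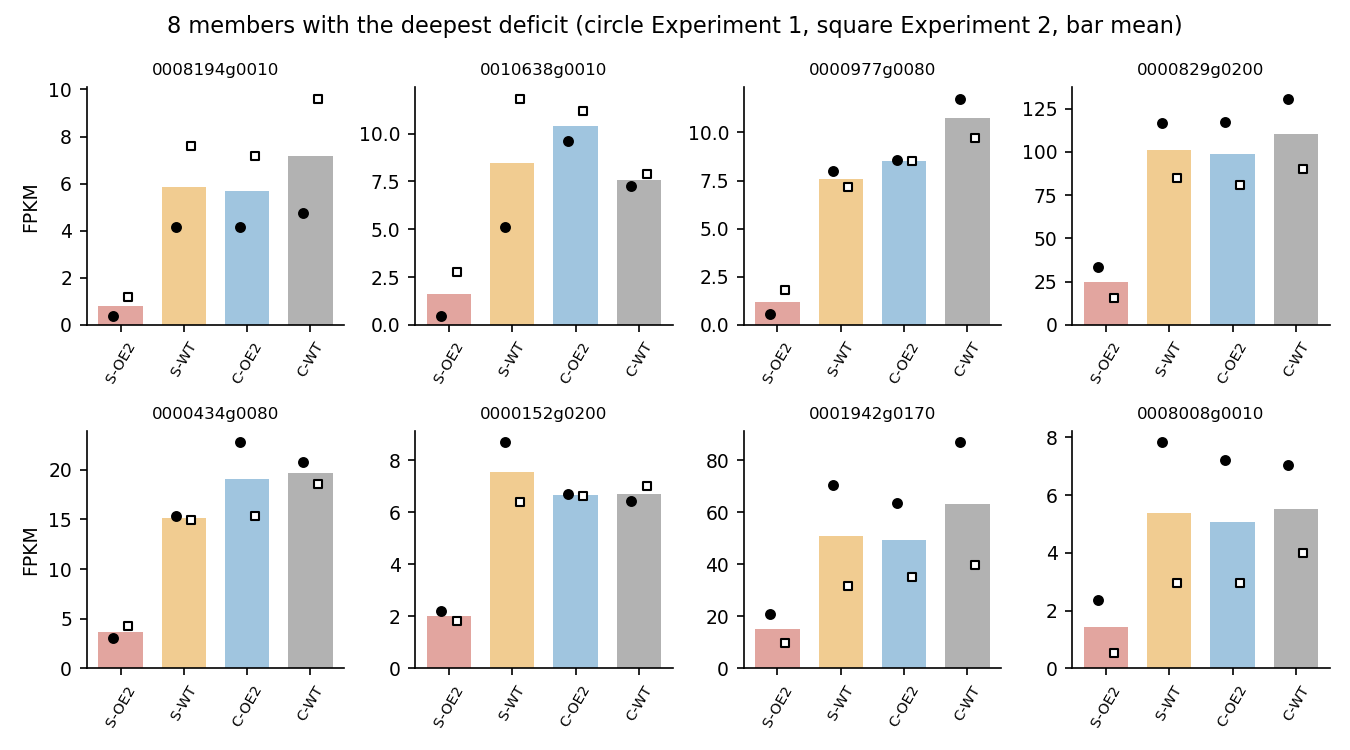
FPKM of the 8 members with the deepest deficit, with the prefix Nitab4.5_ left off; bars are means of 2 libraries, circles Experiment 1 and squares Experiment 2, and the groups run S-OE2, S-WT, C-OE2 and C-WT from left to right. In each panel both S-OE2 points lie below the 6 others, at 0.386 and 1.18 FPKM for Nitab4.5_0008194g0010.

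The 6 most abundant members had mean C-WT levels up to 194 FPKM and smaller deficits. Nitab4.5_0000551g0050 had 67.4 and 63.3 FPKM in S-OE2, 226 and 141 FPKM in S-WT, 177 and 193 FPKM in C-OE2 and 194 and 194 FPKM in C-WT. S-WT was above C-WT in Experiment 1 and below it in Experiment 2, whereas S-OE2 was nearly equal in the 2 experiments. Nitab4.5_0000597g0020 had 85.96 and 51.9 FPKM in S-OE2, 203 and 104 FPKM in S-WT, 249.7 and 124 FPKM in C-OE2 and 235 and 151 FPKM in C-WT. Nitab4.5_0002895g0020 had 47.1 and 70.1 FPKM in S-OE2, 125 and 141 FPKM in S-WT, 225 and 181 FPKM in C-OE2 and 157 and 209 FPKM in C-WT. In both, S-WT lay below C-WT in each experiment. The other 3, Nitab4.5_0005176g0090, Nitab4.5_0007512g0020 and Nitab4.5_0002913g0010, had 47.3 to 76.1 FPKM in S-OE2, 106 to 175 FPKM in S-WT, 149 to 189 FPKM in C-OE2 and 148 to 208 FPKM in C-WT. No S-OE2 value of these 6 genes reached the lowest value of any other group.

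Abundant genes were over-represented by number among the members, compared with the window they came from. The median mean C-WT level was 35.7 FPKM (5.41 to 194), against 14.6 FPKM over all genes in the window. Members with 100 to 200 FPKM numbered 19, or 19.6%, against 5.22% of the genes in the window, and 38 members, 39.2%, had 5 to 20 FPKM, against 62.1% of them. The median S-OE2/S-WT ratio was 0.379 at 5 to 20 FPKM, 0.444 at 20 to 100 FPKM and 0.463 at 100 to 200 FPKM in Experiment 2. In Experiment 1 it was 0.360, 0.368 and 0.342, so that the order of the levels was seen in Experiment 2 alone. Across the 97 genes, the level and the higher of the 2 ratios had a Spearman correlation of 0.41, which is a description over genes measured in the same libraries. Low counts make both flat and low ratios scatter more, and the part of this in the relation was not tested. In S-OE2 the median member count was 227.5 reads, and 15 members had under 50 reads in an S-OE2 library.

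Many members lay close to the limit. For 40 of the 97 the higher S-OE2/S-WT ratio was at least 0.45, and for 2, Nitab4.5_0008194g0010 and Nitab4.5_0010638g0010, it was at most 0.25. The nearest members inside were Nitab4.5_0001684g0040 (0.4997), Nitab4.5_0000779g0050 (0.4996) and Nitab4.5_0000560g0010 (0.4993). The nearest genes outside that met everything else were Nitab4.5_0003716g0040 (0.5033), Nitab4.5_0000292g0030 (0.5033) and Nitab4.5_0003485g0020 (0.5039), and 48 such genes had a ratio of up to 0.55. Nitab4.5_0001684g0040 had 6.57 and 6.98 FPKM in S-OE2 and 16.8 and 14.1 FPKM in S-WT. Nitab4.5_0003716g0040, outside, had 33.7 and 23.9 FPKM in S-OE2 and 86.7 and 47.5 FPKM in S-WT. Nothing in these values separates the last members from the first genes left out.

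The deficit was deeper in Experiment 1 for most members. The median S-OE2/S-WT ratio was 0.360 in Experiment 1 (0.0789 to 0.4996) and 0.427 in Experiment 2 (0.161 to 0.4997). The ratio was lower in Experiment 1 for 75 members, 77.3%, and in Experiment 2 for 22. Over all genes in the window 48.1% had the lower ratio in Experiment 1, and over the 410 genes with the same deficits that were not flat 73.9% had it. The shift was therefore shared by other genes with such deficits. Across the members, the log2 ratios of the 2 experiments had a Spearman correlation of 0.43, a value that the common limit of 0.5 bears on.

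The genes that differed most between the experiments show both directions. Nitab4.5_0000711g0020 had 1.62 and 5.09 FPKM in S-OE2, 11.9 and 14.1 FPKM in S-WT, 8.20 and 21.1 FPKM in C-OE2 and 10.2 and 20.04 FPKM in C-WT. Its S-OE2/S-WT ratio was 0.143 in Experiment 1 and 0.365 in Experiment 2. Nitab4.5_0003559g0050 had 3.95 and 3.27 FPKM in S-OE2, 25.4 and 8.31 FPKM in S-WT, 25.2 and 12.0 FPKM in C-OE2 and 35.3 and 11.0 FPKM in C-WT. Here S-OE2 was alike in the 2 experiments and the other groups were not. Nitab4.5_0000977g0080, described above, was the third gene of this kind. Nitab4.5_0001450g0230, a short gene model of 318 bases, went the other way with 1.28 and 1.89 FPKM in S-OE2, 4.01 and 12.3 FPKM in S-WT, 3.14 and 7.33 FPKM in C-OE2 and 2.75 and 9.39 FPKM in C-WT. Nitab4.5_0003928g0010 had 1.86 and 1.43 FPKM in S-OE2, 5.12 and 7.33 FPKM in S-WT, 5.26 and 9.78 FPKM in C-OE2 and 7.28 and 8.51 FPKM in C-WT. With Nitab4.5_0000829g0200 these were the 3 of the 22 genes in which the deficit of Experiment 2 exceeded that of Experiment 1 by most.

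**Figure D3:**
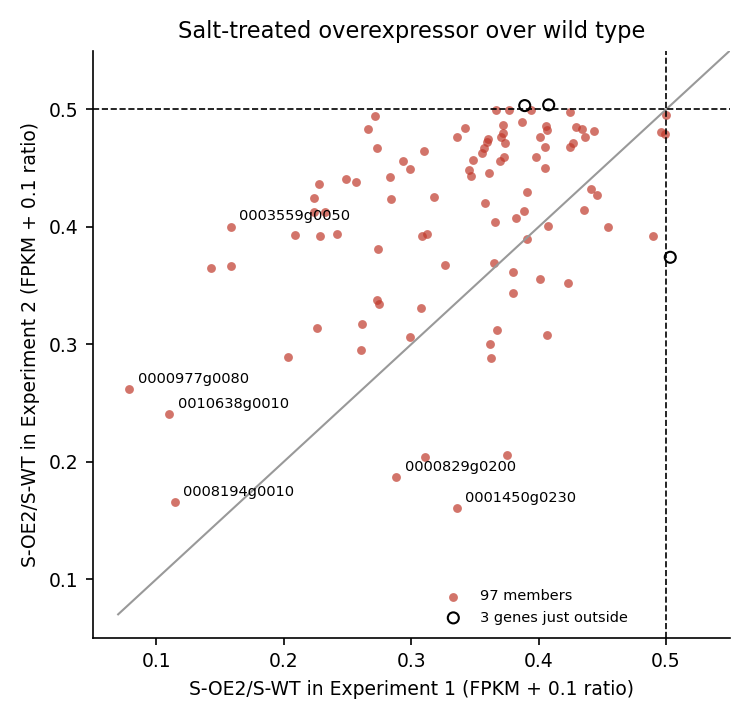
S-OE2/S-WT ratio of FPKM + 0.1 in Experiment 1 (x axis) and Experiment 2 (y axis) for the 97 members (red) and the 3 nearest genes outside the limit (open circles), with dashed lines at 0.5 and a grey line of equality. Of the members, 75 lie above the line, with the lower ratio in Experiment 1, and 22 below it.

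The wild type was flat by the rule, yet not evenly so. The median S-WT/C-WT ratio was 0.874 in Experiment 1 and 0.829 in Experiment 2, against 0.995 and 0.958 over the 11827 genes in the window with both flat ratios. S-WT was below C-WT in both experiments for 57 members, or 58.8%, against 32.6% of the flat genes in the window. It was above C-WT in both for 9 members, or 9.28%, against 22.4%, and mixed for the remaining 31. The label of a gene repressed in the overexpressor alone therefore holds at the limits of 0.67 and 1.5, and most members had S-WT values somewhat below C-WT. None was called lower by edgeR, but only 0.0494% of all genes tested were, and the rule had limited this ratio. S-WT/C-WT ratios of the 2 experiments had a Spearman correlation of 0.19 across the members. In the edgeR fit the median S-WT over C-WT change of the members was -0.15 on the log2 scale, with 70 genes below 0 and 27 above. With total-count scaling it was 0.12, with 31 below and 66 above, against a median of 0.30 over all genes, so that the members stood 0.18 below all genes under either scaling.

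The rule also held the difference between OE-2 and WT without salt within its limits. The median C-OE2/C-WT ratio was 0.927 in Experiment 1 and 0.955 in Experiment 2, against 0.952 and 0.963 over the flat genes in the window. C-OE2 was below C-WT in both experiments for 31 members, 32.0%, against 35.6% of the flat genes in the window. It was above C-WT in both for 8 members, 8.25%, against 15.6%, and mixed for 58. The fitted median was -0.06 on the log2 scale, with 64 members below 0, and with total-count scaling 0.0154, with 59 members above 0 and a median over all genes of 0.09.

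The 5 flattest members give the pattern in its plainest form. Nitab4.5_0008998g0010 had 9.17 and 14.4 FPKM in S-OE2, 21.5 and 29.9 FPKM in S-WT, 22.1 and 29.1 FPKM in C-OE2 and 20.7 and 29.2 FPKM in C-WT. Nitab4.5_0000240g0120 had 4.62 and 3.30 FPKM in S-OE2, 10.7 and 7.05 FPKM in S-WT, 12.5 and 6.92 FPKM in C-OE2 and 11.0 and 7.05 FPKM in C-WT. The 3 groups other than S-OE2 stood at nearly one level within each experiment in these genes. Nitab4.5_0000299g0040 had 14.7 and 29.0 FPKM in S-OE2, 40.4 and 71.8 FPKM in S-WT, 34.4 and 82.0 FPKM in C-OE2 and 35.5 and 81.5 FPKM in C-WT. Nitab4.5_0000618g0110 had 8.93 and 6.14 FPKM in S-OE2, 29.2 and 18.8 FPKM in S-WT, 27.8 and 21.4 FPKM in C-OE2 and 25.1 and 19.98 FPKM in C-WT. The fifth was Nitab4.5_0000829g0200. Over all 97 members, the highest of the 3 other libraries was 1.34 times the lowest in Experiment 1 and 1.32 times in Experiment 2 at the median, and at most 1.87 and 1.67 times.

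The 12 photosynthesis genes that the paper identifies were the nearest comparison with known function. They encode photosystem I and II subunits, light-harvesting proteins, ferredoxin, a chloroplast ATP synthase subunit and the chloroplast glyceraldehyde-3-phosphate dehydrogenase GAPA. All 12 had S-OE2 at or below 0.5 of C-OE2 in both experiments, and 11 had it at or below 0.5 of S-WT, *Fd* being the exception. None of the 12 was flat in WT in both experiments, and none lay in the window of C-WT levels. Within the flat limits for S-WT/C-WT were *PsaE*, *PsbQ*, *OEE1*, *Lhcb3* and *Fd* in Experiment 1 alone. The ATP synthase subunit gene and *GAPA* were within them in Experiment 2 alone. Their median S-WT/C-WT ratio was 0.658 and 0.594, against 0.874 and 0.829 for the members, and their median S-OE2/S-WT ratio was 0.369 and 0.420, against 0.360 and 0.427. The medians of S-OE2/S-WT of the 2 sets were close, and those of S-WT/C-WT, which the rule had limited for the members, were apart. The study picked these genes from the same libraries. None of its 12 defense genes and 1 of its 4 cation genes, *CAX3* (a vacuolar cation/proton exchanger), had both deficits.

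The 410 genes with the same deficits that were not flat had deeper deficits than the members. Their median S-OE2/C-OE2 ratio was 0.207 and 0.270, against 0.331 and 0.387 for the members, and their median S-OE2/S-WT ratio was 0.286 and 0.364. Their median S-WT/C-WT ratio was 0.621 and 0.610. They were also less abundant, with a median mean C-WT level of 17.3 FPKM against 35.7 FPKM. The S-OE2/C-OE2 values follow from the rule in part. That ratio is the product of S-OE2/S-WT and S-WT/C-WT divided by C-OE2/C-WT, and the rule limited the flat ratios for the members alone. The differences in S-OE2/S-WT and in level were not tested.

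**Figure D4:**
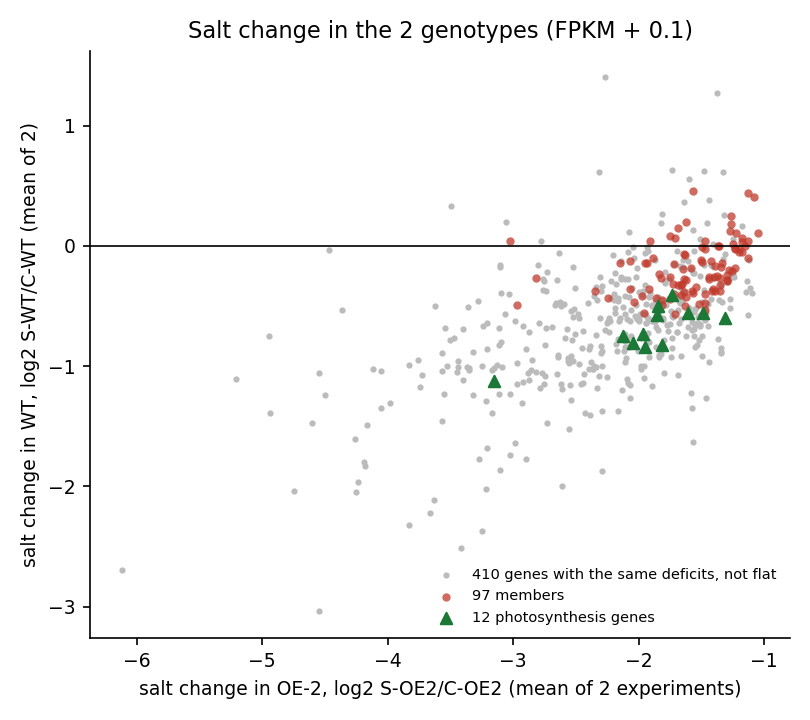
Mean log2 ratio of FPKM + 0.1 over 2 experiments, S-OE2/C-OE2 on the x axis and S-WT/C-WT on the y axis, for the 97 members (red), the 410 genes with the same deficits that were not flat (grey) and the 12 photosynthesis genes (green triangles). The median S-WT/C-WT ratios of the photosynthesis genes, 0.658 and 0.594, and of the grey points, 0.621 and 0.610, are below those of the members, and the ranges overlap.

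Counts were also fitted with edgeR's quasi-likelihood test, with terms for group and experiment, over the 44564 genes that passed a filter on low counts. All 97 members passed it. A gene was called at a Benjamini-Hochberg adjusted p below 0.05 over all genes tested. S-OE2 over S-WT was called lower for 93 members, against 3.2% of all genes tested, and S-OE2 over C-OE2 for 94, against 6.18%. The rule used these contrasts, so nothing is read from the counts. Nitab4.5_0005144g0020 and a locus of the authors' own transcript assembly were called in neither, with Nitab4.5_0007142g0040 and Nitab4.5_0003510g0110 missing from the first contrast and Nitab4.5_0001450g0230 from the other. The median member change was -1.32 on the log2 scale for S-OE2 over S-WT (-2.89 to -0.93, median SE 0.24) and -1.43 for S-OE2 over C-OE2. Without the term for the experiment 0 members were called in S-OE2 over S-WT, with 83 at an unadjusted p below 0.05, and 5 in S-OE2 over C-OE2. The shares of all genes called in that fit are not given, so these counts are not read as a result about the members. Leaving out a library of the contrast leaves 1 library in a group, and fewer members were called each time. For S-OE2 over S-WT the median change was -1.22 without S-OE2 and -1.24 without S-WT of Experiment 1. It was -1.44 without S-OE2 and -1.35 without S-WT of Experiment 2. For S-OE2 over C-OE2 it was -1.31 without S-OE2 and -1.41 without C-OE2 of Experiment 1. The values for Experiment 2 were -1.56 without S-OE2 and -1.48 without C-OE2.

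The flat contrasts and the interaction gave no calls among the members. S-WT over C-WT was called lower for 0 members, against 0.0494% of all genes tested. An unadjusted edgeR p below 0.05 was met in that direction by 3 members, against 4.88% of all genes tested, so nothing is read from the 3. They were Nitab4.5_0005330g0050, Nitab4.5_0008454g0030 and Nitab4.5_0001663g0160. DESeq2 called 0 members lower in this contrast as well. C-OE2 over C-WT was called lower for 0 members, against 0.0202% of all genes, and DESeq2 called 0. An unadjusted edgeR p below 0.05 in that direction was met by 0 members, against 1.34% of all genes tested. The interaction, which is the salt change in OE-2 minus that in WT, had a median of -1.29 on the log2 scale (-2.89 to -0.91, median SE 0.33). It was called lower for 0 members by edgeR, against 0.00224% of all genes tested. DESeq2 called it lower for 50 members and for 0.925% of all genes tested. An unadjusted edgeR p below 0.05 was met in that direction by 96 members, against 5.42% of all genes tested. The rule had fixed that direction for the members. Without the filter on low counts edgeR called 6 members lower and 0.112% of all genes. Whether a member's deficit is called as particular to OE-2 under salt thus depends on the tool, and the rule had already used all 4 groups.

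The 2 S-OE2 libraries were below all 6 others in FPKM for 89 members, against 13.6% of all genes tested, a count that the choice largely fixed. In the other 8, among them Nitab4.5_0008561g0010, Nitab4.5_0010703g0010 and Nitab4.5_0003899g0010, an S-OE2 library of one experiment reached the level of another group in the other experiment.

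The difference between the 2 experiments, averaged over the 4 groups, was not itself in the rule. The rule did limit the 4 ratios within each experiment, however, and this may bear on the spread that this test divides by. Its part in the calls among the members was not tested. The shares called are therefore given as a description. Experiment 2 over Experiment 1 was called lower for 16 members, 16.5%, by edgeR's quasi-likelihood test, where the background was 7.42% of all genes tested, 10.1% of those in the window of levels and 7.36% of those in the window with both flat ratios. It was called higher for 15 members, 15.5%, where the background was 6.36%, 7.64% and 7.72%. The last of these sets carries the limits on S-WT/C-WT and C-OE2/C-WT but none on S-OE2. All 16 were lower, and all 15 higher, in Experiment 2 in each of the 4 groups. A difference of at least 2-fold was seen in 16 members, 16.5%, against 14.8% of all genes tested and 8.71% of those in the window. The median C-WT level of the members was 35.7 FPKM against 14.6 FPKM in the window, and its part in the share called was not tested. Without any 1 C-WT or C-OE2 library 9 members, 9.28%, were called lower, against 2.63% to 3.28% of the flat genes in the window, and 6 or 7 higher, 6.19% or 7.22%, against 2.83% to 3.31%. Without either S-WT library 9 members were called higher, 9.28%, against 4.05% to 4.16%. With total-count scaling 11 members were called lower, 11.3% against 2.49%, and 29 higher, 29.9% against 27.8%, when the median over all genes was 0.35 on the log2 scale. The experiment and anything else that differed between the 2 rounds of growth, sampling or sequencing cannot be told apart.

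The genes lower in Experiment 2 included the largest differences. Nitab4.5_0008561g0010, a gene model of 393 bases, had 4.69 and 21.0 FPKM in S-OE2 in Experiments 2 and 1, 15.2 and 57.2 FPKM in S-WT, 12.9 and 88.0 FPKM in C-OE2 and 10.9 and 70.9 FPKM in C-WT. It was 5.27-fold lower in Experiment 2, a log2 change of -2.40 ± 0.20 (SE) with an edgeR adjusted p of 0.00028. Nitab4.5_0010703g0010 had 9.38 to 31.3 FPKM in Experiment 2 and 40.7 to 102.4 FPKM in Experiment 1, with a log2 change of -1.85 ± 0.15 (SE; edgeR adjusted p = 0.00024). Nitab4.5_0008454g0030 had 3.34 to 11.7 FPKM in Experiment 2 and 11.2 to 36.1 FPKM in Experiment 1, with a log2 change of -1.76 ± 0.15 (SE; edgeR adjusted p = 0.00025). In all 3 genes S-OE2 was the lowest of the 4 groups within each experiment. Nitab4.5_0008008g0010, the fourth by size, had a log2 change of -1.38 ± 0.24 (SE; edgeR adjusted p = 0.0077).

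Among the genes higher in Experiment 2, Nitab4.5_0003899g0010 had 5.55 and 1.18 FPKM in S-OE2 in Experiments 2 and 1, 14.4 and 3.18 FPKM in S-WT, 13.0 and 5.20 FPKM in C-OE2 and 14.2 and 3.60 FPKM in C-WT. It was 3.74-fold higher in Experiment 2, a log2 change of 1.90 ± 0.21 (SE) with an edgeR adjusted p of 0.0011. The S-OE2/S-WT ratio was 0.391 in Experiment 1 and 0.389 in Experiment 2, almost the same at a level that differed several fold. Nitab4.5_0003914g0070 was 3.17-fold higher, Nitab4.5_0002082g0010 2.66-fold and Nitab4.5_0000038g0110 2.56-fold, with edgeR adjusted p of 0.00097, 0.0018 and 0.0024. Their S-OE2 levels in Experiment 2, 10.3, 10.2 and 12.0 FPKM, were above or near the C-WT levels of Experiment 1, 8.82, 9.93 and 12.9 FPKM. Across experiments the S-OE2 and C-WT values of the first 2 of these genes thus overlapped and those of Nitab4.5_0000038g0110 did not. The S-OE2 level of Nitab4.5_0000038g0110 in Experiment 2 was, however, above its S-WT and C-OE2 levels of Experiment 1, 10.6 and 9.26 FPKM. The median S-OE2/S-WT ratios were 0.339 and 0.396 for the 16 genes lower in Experiment 2, 0.366 and 0.441 for the 15 higher and 0.359 and 0.429 for the other 66.

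**Figure D5:**
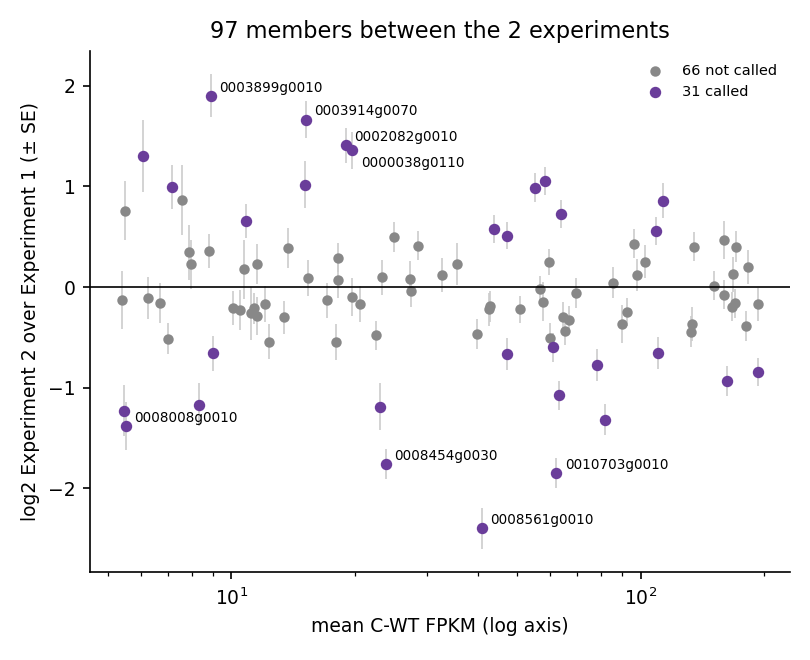
Fitted log2 change of Experiment 2 over Experiment 1 with its SE (y axis) against the mean C-WT FPKM (log x axis) for the 97 members, with the 31 called genes in purple and the prefix Nitab4.5_ left off the names. Of the called genes 16 lie below 0, down to -2.40, and 15 above, up to 1.90.

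In structure the members resembled the genes they were drawn from. The median length of the gene models was 1096 bases (318 to 2737), against 1104 bases over the window, and the median span on the scaffold was 3975 bases against 3967 bases. Span and length were equal, as in genes without introns, for 10 members, 10.3%, against 10.5%. Loci of the authors' own assembly numbered 7, or 7.22%, against 6.32%. The members lay on 97 different scaffolds, 47 on the plus strand and 50 on the minus strand, so that no scaffold held more than 1. Nitab4.5_0000792g0130 was the only one that overlapped another gene of the table, Nitab4.5_0000792g0180, and reads of the pair may be shared.

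The genes next to the members did not share their pattern as a group. Of 162 neighbours, at a median distance of 14488 bases, 117 were tested, with a median S-OE2 over S-WT change of -0.05 on the log2 scale. Among them 3 were called lower, 2.56%, against 3.2% of all genes tested, and these were Nitab4.5_0008194g0060, Nitab4.5_0000829g0160 and Nitab4.5_0003914g0040. Nitab4.5_0008132g0040 and Nitab4.5_0000560g0040 were called higher, with log2 changes of 4.55 and 2.01 and edgeR adjusted p of 0.0423 and 0.017. The share of all genes called higher is not given, so no share of neighbours is compared in that direction. The neighbour of Nitab4.5_0008194g0010, the member with the lowest level in S-OE2 of Experiment 1, lay 1098 bases away and had a log2 change of -1.01 with an edgeR adjusted p of 0.021. Tobacco is an allotetraploid, and how reads that fit both copies of a gene were counted is not given in the sources used here, so that members with a near-identical copy may carry reads of it.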

How the data were processed

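Leaf RNA-seq libraries of 4 groups in 2 experiments were used. The authors deposited raw read counts and FPKM values for 81378 genes, with positions on the Nitab-v4.5 scaffolds. The submitters' processing notes name HISAT2 2.0.5, StringTie 1.3.3b, featureCounts 1.5.0-p3 and DESeq2 1.20.0. The deposited FPKM equal counts divided by gene length and by 1 denominator per library, and the ratio of the denominators to median-ratio size factors of the counts varied by 3.66% (coefficient of variation). FPKM served for the choice of members and for levels, and were not tested. The number of columns that could not be assigned to a sample was 0.

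Counts were fitted in R 4.3.3 with edgeR 4.0.16 (filterByExpr, TMM factors, glmQLFit and glmQLFTest, Benjamini-Hochberg over 44564 genes), with terms for group and experiment. Each SE is the absolute log2 change divided by the square root of F, which is approximate. The experiment is a block because the paper compares groups within each independent experiment, and deviations from the group means were correlated between libraries of the same experiment (0.35 to 0.46 across genes, 6 pairs of groups). The fits were tested on simulated counts. Alternatives were DESeq2 1.42.0, no filter, total-count scaling, no block, each experiment alone, each library left out, and other limits, pseudocounts and scalings in the rule.

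The members and lists were chosen with earlier results of these data known. Named are the 8 members with the deepest deficit, the 6 most abundant, the 3 nearest the limit on each side, the 4 with the largest experiment difference each way, the 5 flattest and the 3 with the largest excess of the deficit in each experiment over the other. Neighbours and genes named beside counts of 5 or fewer, the 8 exceptions and the members that differ in direction were chosen after their values were seen. Total counts of 18674594 to 31672013 per library set the counting error, and no molecular identifiers are mentioned.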

Additional observations from a re-analysis of the deposited data

Results flagged for a closer look

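In 9 members the salt ratio had opposite directions in the genotypes, with S-OE2 below C-OE2 and S-WT above C-WT in both experiments. The S-WT excess was small in places, as in Nitab4.5_0008998g0010, with 21.5 and 29.9 FPKM in S-WT against 20.7 and 29.2 FPKM in C-WT, and larger in a locus of the authors' own transcript assembly, with 27.2 and 28.4 FPKM in S-WT against 23.9 and 22.8 FPKM in C-WT. The fitted salt change in OE-2 minus that in WT was -1.47 for this locus, -1.996 for Nitab4.5_0001450g0230, -1.78 for Nitab4.5_0004367g0080, -1.55 for another such locus, -1.47 for Nitab4.5_0000009g0270, -1.37 for Nitab4.5_0005482g0010, -1.52 for Nitab4.5_0000965g0090, -1.13 for Nitab4.5_0008998g0010 and -1.12 for Nitab4.5_0001889g0060 on the log2 scale. None of the 9 was called in the interaction by edgeR, and the rule had chosen them on the same ratios, so that the opposite directions were not tested. With 2 libraries per group no single library could be singled out as far from the others of its group.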

How the results depend on the processing

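The number of genes that met the rule was 97. It was 37 with FPKM from total counts, 20 with deficit ratios of at most 0.4 and 18 with narrower flat ratios. With Experiment 1 alone 664 genes met it and with Experiment 2 alone 436. Other pseudocounts, TMM-scaled values and no lower level limit gave 66 to 145. With total-count scaling the median member change was -1.03 for S-OE2 over S-WT, -0.95 for S-OE2 over C-OE2, 0.12 for S-WT over C-WT, 0.0154 for C-OE2 over C-WT and -1.08 for the interaction. Under that scaling 29 members, 29.9%, were called higher in Experiment 2, against 27.8% of the genes in the window with both flat ratios. DESeq2 gave -0.084 for C-OE2 over C-WT. In Experiment 2 alone, S-WT over C-WT was -0.22 and C-OE2 over C-WT -0.0399. With single libraries left out, the medians were -1.44 to -1.22 for S-OE2 over S-WT, -1.56 to -1.31 for S-OE2 over C-OE2, -0.26 to -0.10 for S-WT over C-WT, -0.106 to -0.0118 for C-OE2 over C-WT and -1.41 to -1.14 for the interaction, and 9 to 15 members were called lower and 6 to 10 higher in Experiment 2. With no replicate block the median S-OE2 over S-WT change was -1.31. The difference between experiments has no fit without the block. The cause of these shifts was not tested. Leaving a group with 1 library assumes that it varies like the others.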
